A study of Mus musculus with 12 samples.

Results

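The transcripts of 10 secreted inflammatory mediators and CXC chemokines were followed across 12 RNA-seq libraries of bone marrow-derived macrophages (BMDM, macrophages grown in culture from marrow). The genes were taken by symbol from the deposited table: Tnf, Il1b, Il18, Il6, Il10, Il1rn, Saa3, Cxcl2, Cxcl10 and Cxcl16. All 10 were among the 14098 genes of the table, and 9 of them reached at least 1 TPM in at least 2 libraries, as did 11194 genes in all. Il6 did not, and is described only. TPM is a read level per transcript length, scaled so that each library adds up to 1000000.

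BMDM of wild-type (WT, Camkk2+/+) or Camkk2-/- (KO) C57Bl/6 mice of both sexes, aged 8 to 10 weeks, were embedded in a hydrogel of collagen and hyaluronic acid. In the WT stiff and KO stiff groups the gel was stiffened 24 h after embedding by UV light with a photoinitiator, and the cells were then kept for 48 h. The WT soft and KO soft groups stayed in the soft gel, and the WT soft+IL-4 and KO soft+IL-4 groups were in the soft gel with interleukin-4. All marrow was grown in medium conditioned by L929 cells, and all gels were dissolved with collagenase IV before RNA was taken. Each of the 6 groups has 2 libraries, which the labels call biological replicates. The stiff gel also held more collagen and met UV light and initiator, so that stiffness and these treatments cannot be told apart.

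Macrophages release tumour necrosis factor (encoded by Tnf) and the IL-1 family cytokines (Il1b, Il18) in response to microbial products and danger signals, largely through transcription factors of the NF-kappaB family. IL-1beta and IL-18 are made as precursors that caspase-1 cuts in the inflammasome, IL-10 and the IL-1 receptor antagonist (Il1rn) restrain the response, and CXC chemokines draw in neutrophils (Cxcl2) or T cells (Cxcl10 and Cxcl16). IL-4 acts through STAT6 and is the classical inducer of the alternative, pro-regenerative macrophage program. CaMKK2, encoded by Camkk2, is a kinase activated by calcium and calmodulin.

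The windows before the transcription start of the 5 genes that fell between the groups labelled WT soft and WT stiff are shown, because these 5 genes were called there. Each line holds the 250 bases before the RefSeq start on GRCm38.p6, 5′ to 3′ on the strand of the gene. Capitals mark the searched motifs.
Tnf (chr17:35202008-35202257, minus strand): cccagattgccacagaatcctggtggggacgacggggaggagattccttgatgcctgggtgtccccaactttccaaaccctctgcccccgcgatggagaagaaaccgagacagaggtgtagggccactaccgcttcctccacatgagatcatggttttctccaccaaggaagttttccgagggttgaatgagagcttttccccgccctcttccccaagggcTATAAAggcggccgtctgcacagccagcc
Il1b (chr2:129371140-129371389, minus strand): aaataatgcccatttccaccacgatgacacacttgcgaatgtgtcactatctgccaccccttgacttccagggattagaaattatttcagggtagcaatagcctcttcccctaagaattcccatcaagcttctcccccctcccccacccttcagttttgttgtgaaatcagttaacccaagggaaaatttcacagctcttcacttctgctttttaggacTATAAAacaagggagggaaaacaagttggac
Saa3 (chr7:46715677-46715926, minus strand): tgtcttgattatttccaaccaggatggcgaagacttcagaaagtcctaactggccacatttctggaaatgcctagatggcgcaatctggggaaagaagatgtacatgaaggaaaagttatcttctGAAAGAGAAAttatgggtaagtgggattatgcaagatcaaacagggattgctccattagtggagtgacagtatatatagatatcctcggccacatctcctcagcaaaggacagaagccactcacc
Cxcl2 (chr5:90903649-90903898, plus strand): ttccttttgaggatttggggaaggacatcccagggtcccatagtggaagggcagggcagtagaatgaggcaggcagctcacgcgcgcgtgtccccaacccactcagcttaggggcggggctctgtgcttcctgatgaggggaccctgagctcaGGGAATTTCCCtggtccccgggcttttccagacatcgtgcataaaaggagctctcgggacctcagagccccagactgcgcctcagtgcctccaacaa
Cxcl10 (chr5:92348890-92349139, minus strand): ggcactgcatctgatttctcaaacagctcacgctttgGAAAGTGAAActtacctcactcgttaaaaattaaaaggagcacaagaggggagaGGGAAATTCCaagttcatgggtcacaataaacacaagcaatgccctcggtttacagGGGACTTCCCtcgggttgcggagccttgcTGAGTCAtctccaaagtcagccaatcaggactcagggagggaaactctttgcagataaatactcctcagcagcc

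The RefSeq windows used here covered 8 of the 10 genes (not Il10 and Cxcl16), and the search also covered the first 50 transcribed bases and both strands. The motifs were the 10-base NF-kappaB consensus, the interferon response core GAAANNGAAA, the STAT sites TTCNNNGAA and TTCNNNNGAA, the AP-1 site TGANTCA and the TATA box TATAAA. Of 32851 mouse windows, 4.51% held the NF-kappaB consensus, 3.44% the interferon core, 8.3% and 6.95% the STAT sites, 7.81% the AP-1 site and 13.6% the TATA box. The NF-kappaB consensus was present in Cxcl2, Cxcl10 and Il6. In Cxcl2 it matched on both strands in overlapping positions from -97 to -87, and in Cxcl10 it matched from -159 to -150 and from -103 to -94. Cxcl10 and Saa3 held the interferon core, from -213 to -204 and from -125 to -116, and Cxcl10 also an AP-1 site from -74 to -68. Tnf and Il1b held a TATA box, from -29 to -24 and from -31 to -26, and matches to it on the other strand stood at -175 to -170 in Il18 and at 15 to 20 from 1 start of Il1rn. AP-1 sites were also present in Il6 (-249 to -243) and at 1 start of Il1rn (-141 to -135). Il18 and Il1rn held the STAT site with 4 bases between. A match describes letters in this window and is not a site of binding.

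**Figure D1:**
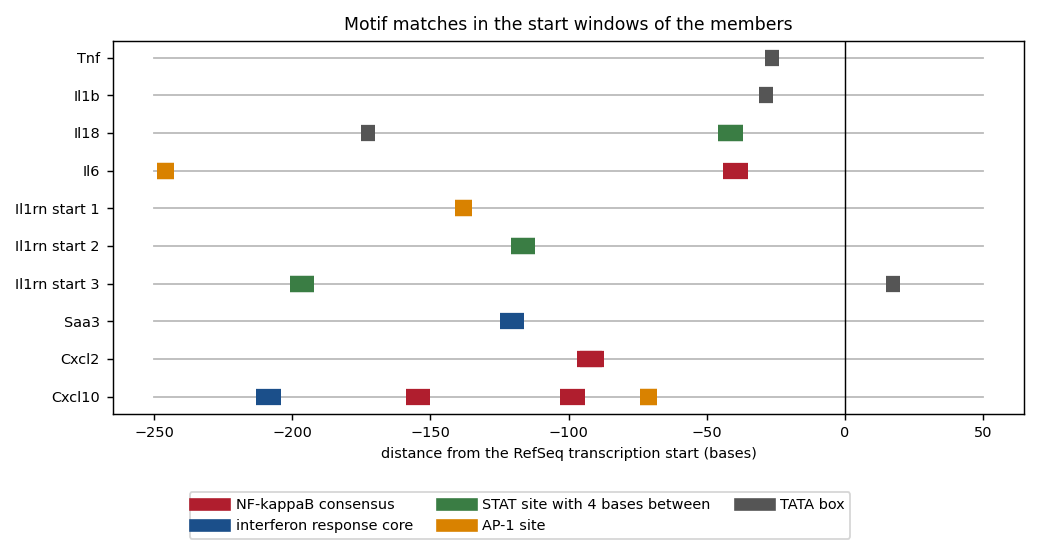
Positions of motif matches (coloured blocks) from 250 bases before to 50 bases after each RefSeq transcription start (horizontal axis, bases), 1 row per start. Of the genes drawn, Cxcl10 holds 2 NF-kappaB matches, an interferon core and an AP-1 site, and Tnf and Il1b hold a TATA box only.

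Several facts on the libraries bear on the values. Camkk2, the gene deleted in KO mice (chromosome 5, 122731170 to 122779409, GRCm38), went against the label in 3 of the 12 libraries. WT soft 2 held 11.7 TPM of it, KO soft 1 held 46.6 TPM and KO stiff 1 held 37.7 TPM, whereas the other WT libraries held 23.3 to 44.2 TPM and the other KO libraries 8.54 to 11.5 TPM. Groups are therefore named by their labels throughout, and every direction between WT and KO rests on them. Summed macrophage markers were high in every library (8 genes, 23575 to 57335 TPM, most of it Lyz2). The lists of B, T or NK, mast, erythroid and fibroblast markers summed to at most 3.38 TPM. The 2 libraries labelled WT stiff differed most from each other, with a root mean square difference of 0.69 on the log2 scale over tested genes against 0.29 to 0.39 in the other 5 groups, and WT stiff 1 held 97.2 TPM of neutrophil markers against 38.0 to 63.3 TPM elsewhere. Of that sum Mmp8 made up 71.1 TPM (27.9 to 41.9 elsewhere) and S100a9 9.71 TPM (0.29 to 6.80 elsewhere). S100a8, at 12.7 TPM, lay within its range elsewhere (6.51 to 19.9). Genes listed at 0 made up 10.8% to 13.4% of the table in the libraries numbered 1 and 5.90% to 7.54% in those numbered 2. Read totals cannot be had from TPM, and the depth behind each value is therefore unknown.

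Summed over the 10 genes, the libraries labelled WT soft, KO soft and KO stiff held 578 to 884 TPM and those labelled WT soft+IL-4, KO soft+IL-4 and WT stiff 210 to 420 TPM. In 7 genes (Tnf, Il1b, Il18, Saa3, Cxcl2, Cxcl10 and Cxcl16) every one of the first 6 libraries lay above every one of the other 6, as did 9.85% of all tested genes, and 16.7% of them were split in 1 direction or the other. These 2 sets of libraries were formed after the values were seen. Il10 and Il1rn overlapped between these 2 sets of libraries, and Il6 was near 0 in both. In a bulk sample, fewer cells making a transcript and less of it per cell cannot be told apart.

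**Figure D2:**
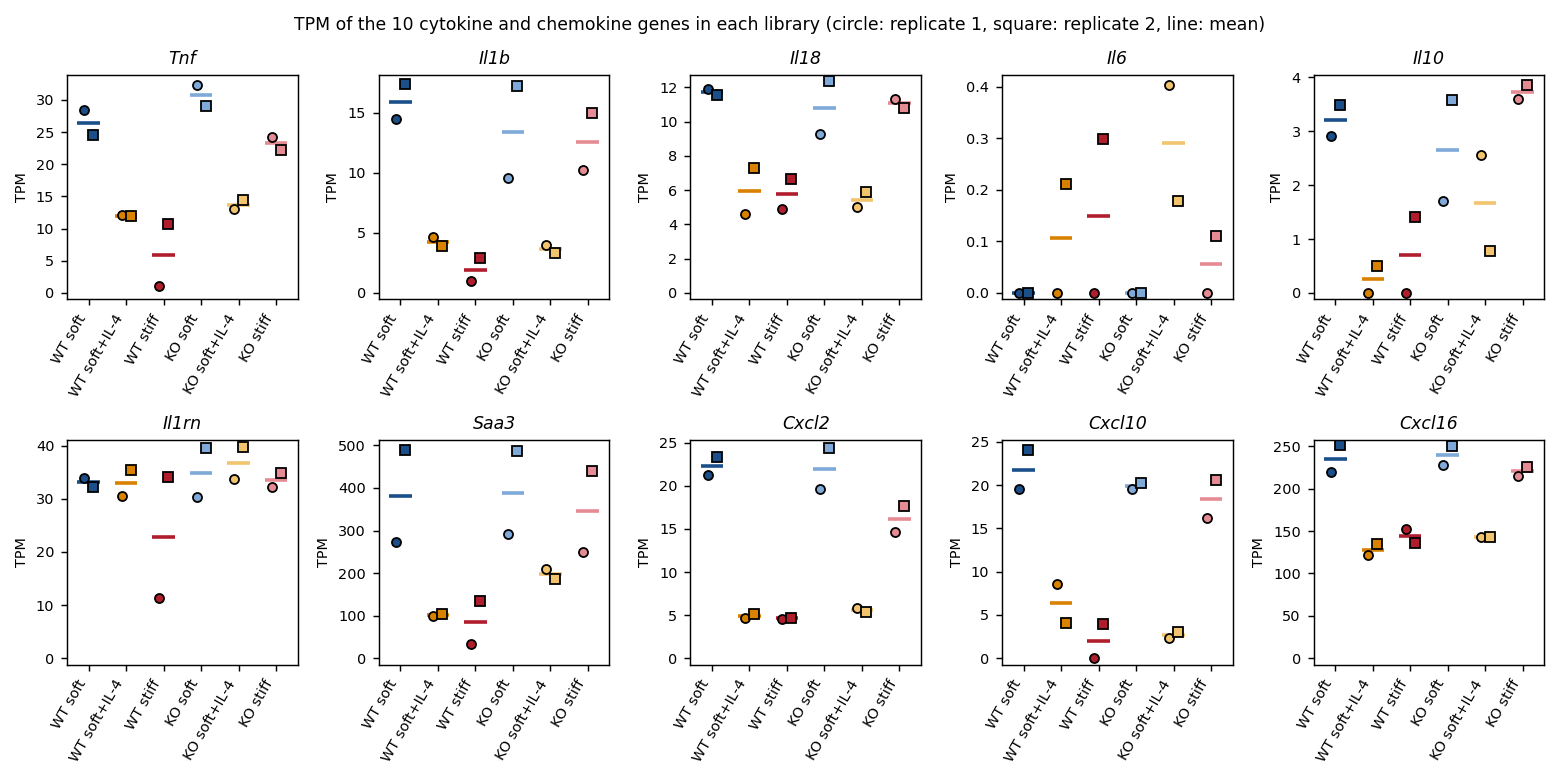
TPM (vertical axis, from 0, a separate scale per gene) of the 10 genes in the 2 libraries of each of the 6 groups, with the mean as a line. In the panels of Tnf, Il1b, Il18, Saa3, Cxcl2, Cxcl10 and Cxcl16, the WT soft, KO soft and KO stiff libraries all lie above the IL-4 and WT stiff libraries; WT stiff 1 is the lowest point for Tnf, Il1b, Il1rn and Saa3 and is at 0 for Cxcl10.

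Among the cytokines that drive inflammation, Tnf (chromosome 17, 35199381 to 35202007) measured 28.4 and 24.6 TPM in replicates 1 and 2 of WT soft, 12.1 and 11.9 with IL-4, and 1.01 and 10.7 in the stiff gel. In the libraries labelled KO the soft pair held 32.4 and 29.0 TPM, the IL-4 pair 13.1 and 14.4, and the stiff pair 24.3 and 22.2. No group overlapped with its neighbour in the order of the means, but WT stiff 1 lay far below WT stiff 2, a gap wider than any other between replicates of Tnf. Il1b (chromosome 2, 129364570 to 129371139) measured 14.5 and 17.4 TPM in the WT soft pair, 4.61 and 3.87 in the WT IL-4 pair and 0.96 and 2.87 in the WT stiff pair. The KO soft pair held 9.53 and 17.2 TPM of Il1b, the KO IL-4 pair 3.98 and 3.30, and the KO stiff pair 10.2 and 14.9. The 3 high groups overlapped with each other, as did both IL-4 groups, and both WT stiff libraries lay below all the others.

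Il18 (chromosome 9, 50554827 to 50581840) varied less, between 11.6 and 11.9 TPM in WT soft, 9.27 and 12.4 TPM in KO soft and 10.8 and 11.3 TPM in KO stiff, against 4.60 to 7.27 TPM in the other 6 libraries. The 3 lower groups overlapped with each other. Il6 (chromosome 5, 30013114 to 30019981), an inducer of the acute phase response, was listed at no more than 0.40 TPM in any library and at 0 in all WT soft and KO soft libraries. No comparison was made for it.

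Of the genes that restrain inflammation, Il10 (chromosome 1, 131019845 to 131024974) was low in every library. The WT soft pair held 2.92 and 3.49 TPM of it, the WT IL-4 pair 0 and 0.50, and the WT stiff pair 0 and 1.41. The KO soft pair held 1.70 and 3.59 TPM, the KO IL-4 pair 2.55 and 0.77, and the KO stiff pair 3.59 and 3.86, so that both KO stiff libraries lay above both WT stiff libraries. Il1rn (chromosome 2, 24336853 to 24351494), whose product occupies the IL-1 receptor without signalling, lay between 30.3 and 39.7 TPM in 11 libraries and at 11.3 TPM in WT stiff 1. Its groups all overlapped with their neighbours. With IL-4 this antagonist stood at 30.5 to 39.7 TPM, against 30.3 to 39.5 TPM in the soft gel, whereas Il1b stood well below its soft libraries.

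Saa3 (chromosome 7, 46711998 to 46715700), a serum amyloid A made by macrophages, held the highest TPM of the 10 genes in 8 of the 12 libraries. Its level was 274 and 490 TPM in the WT soft pair, 99.7 and 104 in the WT IL-4 pair and 34.4 and 135 in the WT stiff pair. The KO pairs held 291 and 488 TPM in the soft gel, 211 and 185 with IL-4, and 250.4 and 440 in the stiff gel. The KO soft+IL-4 libraries lay between the 3 high groups and the WT soft+IL-4 libraries without overlap. In each of the 3 high groups, the library with more Camkk2 (replicate 1) held less Saa3 than the other. Serum amyloid A genes are near copies of each other, and how shared reads were assigned to them is not known here.

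Cxcl2 (chromosome 5, 90903871 to 90905938), a neutrophil attractant, varied little within groups. The WT pairs held 21.3 and 23.4 TPM in the soft gel, 4.69 and 5.18 with IL-4, and 4.57 and 4.66 in the stiff gel. The KO pairs held 19.6 and 24.3 TPM in the soft gel, 5.79 and 5.38 with IL-4, and 14.7 and 17.6 in the stiff gel. KO stiff lay below both soft groups and far above the other 3 groups, without overlap. Cxcl10 (chromosome 5, 92346638 to 92348889), an interferon-inducible ligand of Cxcr3, measured 19.6 and 24.0 TPM in the WT soft pair, 8.64 and 4.10 in the WT IL-4 pair, and 0 and 3.90 in the WT stiff pair. For the KO pairs the values were 19.5 and 20.3 TPM in the soft gel, 2.29 and 3.07 with IL-4, and 16.2 and 20.5 in the stiff gel, so that KO stiff overlapped with KO soft. Cxcl16 (chromosome 11, 70453983 to 70459984), a membrane-bound chemokine that is shed and binds Cxcr6, lay between 215 and 251 TPM in the WT soft, KO soft and KO stiff libraries and between 121 and 152 TPM in the other 6.

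IL-4 in the soft gel was compared with the soft gel alone in WT cells. Cxcl2, Il10 and Il1b fell, by 1.98 ± 0.14, 1.78 ± 0.47 and 1.69 ± 0.35 (log2 of TPM + 1, ± SE, 2 libraries against 2; adjusted p = 8.08e-05, 0.0429 and 0.0144). A gene is called where its Benjamini-Hochberg adjusted p in limma over the 11194 genes is under 0.05 and its log2 fold change is at least 1 in size. So 3 of 9 tested genes were called, all lower, where 3.76% of all genes were called in either direction. The median log2 fold change of the 9 genes was -1.69, against -0.05 for all genes tested. In 8 of 9 genes (all but Il1rn) both IL-4 libraries lay below both soft libraries, where 61.3% of all tested genes did not overlap in 1 direction or the other. Il18 and Cxcl16 passed the adjusted p with values under the fold threshold (-0.90 ± 0.22 and -0.87 ± 0.10). Tnf, Saa3 and Cxcl10 had log2 fold changes of -1.07 ± 0.60, -1.83 ± 0.56 and -1.70 ± 0.60 and missed the adjusted p (0.306, 0.0669 and 0.107). The Il10 value leans on 0 TPM in WT soft+IL-4 1. Its adjusted p in limma ran from 0.0112 to 0.0852 over a pseudocount of 0.1, no filter, median-of-ratios scaling and only the compared libraries. Leaving out WT soft 1, WT soft 2 or WT soft+IL-4 1 left only Cxcl2 called, leaving out WT soft+IL-4 2 left Cxcl2 and added Il18, and leaving out the 3 libraries whose Camkk2 goes against the label left Cxcl2 alone.

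The stiff gel was compared with the soft gel in WT cells. Cxcl10, Il1b, Tnf, Saa3 and Cxcl2 fell, that is 5 of 9 tested genes, where 3.97% of all genes were called. The log2 fold changes were -3.36 ± 0.60 for Cxcl10, -2.61 ± 0.35 for Il1b, -2.50 ± 0.60 for Tnf, -2.41 ± 0.56 for Saa3 and -2.05 ± 0.14 for Cxcl2 (adjusted p = 0.00752, 0.00164, 0.0288, 0.0247 and 6.42e-05). The median over the 9 genes was -2.05, against 0.02 over all genes. Il18 and Cxcl16 were lower by less than the fold threshold (-0.92 ± 0.22 and -0.70 ± 0.10, adjusted p = 0.0259 and 0.00268), and Il10 and Il1rn missed the adjusted p (-1.44 ± 0.47 and -0.71 ± 0.38, adjusted p = 0.0925 and 0.298). In 8 of 9 genes, again all but Il1rn, the WT stiff libraries lay below the WT soft libraries, where 42.8% of all genes did not overlap.

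The size of these falls leaned on the library labelled WT stiff 1. Without it the same 5 genes were called, at -1.23 for Tnf, -1.44 for Saa3, -2.21 for Cxcl10, -2.12 for Il1b and -2.04 for Cxcl2. Cxcl2 moved least, and Cxcl10 was listed at 0 in WT stiff 1, so that its fold change also depends on the pseudocount (-5.11 with a pseudocount of 0.1). Without WT stiff 2 all tested genes but Cxcl16 were called, without WT soft 1 there were 3 (Il1b, Cxcl2 and Cxcl10) and without WT soft 2 there were 2 (Il1b and Cxcl2). None was called when the spread was estimated from these 4 libraries alone, and Cxcl2 alone was called without the 3 libraries whose Camkk2 goes against the label.

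The WT stiff and WT soft+IL-4 groups share their soft controls, so that like values are not independent. The log2 fold changes with the stiff gel and with IL-4 were -3.36 and -1.70 for Cxcl10, -2.61 and -1.69 for Il1b, -2.50 and -1.07 for Tnf, -2.41 and -1.83 for Saa3, -2.05 and -1.98 for Cxcl2, -1.44 and -1.78 for Il10, -0.92 and -0.90 for Il18, -0.71 and -0.01 for Il1rn, and -0.70 and -0.87 for Cxcl16. Compared directly, 0 of 9 genes and 0% of all genes were called by limma, and 3 of the 9 genes (Tnf, Il1b and Cxcl10) had an unadjusted p under 0.05, as did 557 of all genes. The difference of WT stiff from WT soft+IL-4 was -0.08 for Cxcl2 (95% interval -0.40 to 0.25), 0.17 for Cxcl16 (-0.06 to 0.40) and -0.02 for Il18 (-0.50 to 0.47). These 3 intervals span 0. Those of Cxcl10 (-1.66 ± 0.60), Tnf (-1.43 ± 0.60, -2.78 to -0.08) and Il1b (-0.92 ± 0.35, -1.70 to -0.14) leave out 0, at an adjusted p of 0.59 each. Without WT stiff 2, whose removal leaves WT stiff 1 alone in its group, 5 genes were called (Tnf, Il1b, Il1rn, Saa3 and Cxcl10, all lower in WT stiff).

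**Figure D3:**
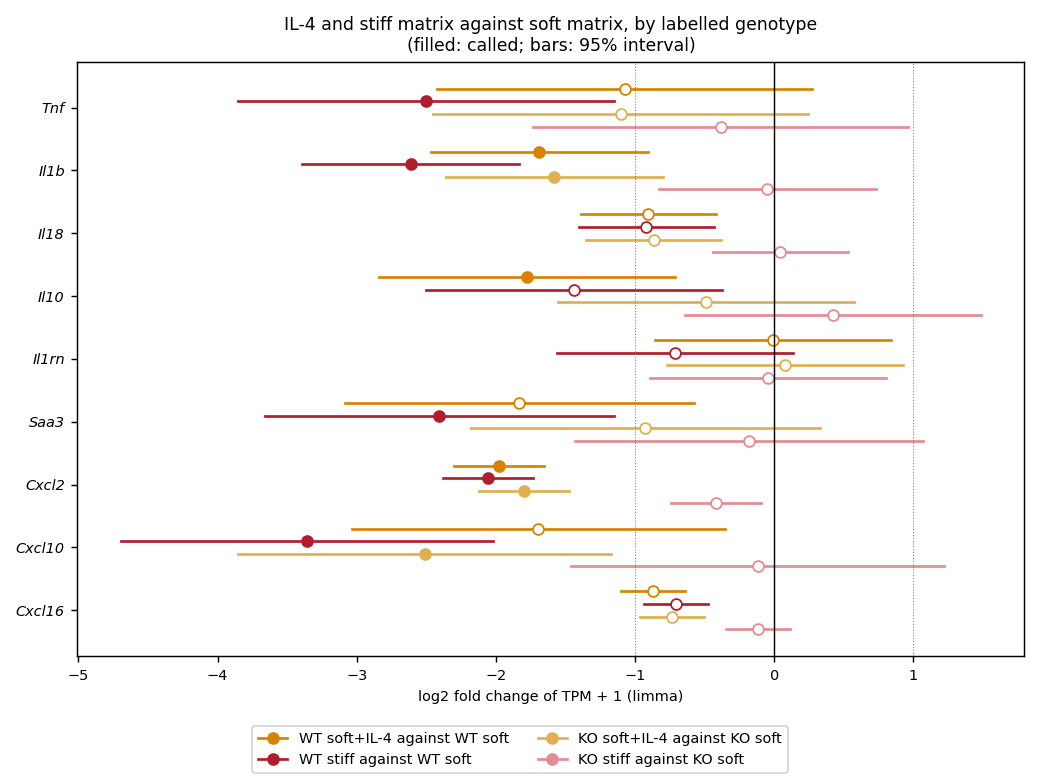
Log2 fold change of TPM + 1 (horizontal axis) with its 95% interval for the 9 tested genes, for IL-4 and for the stiff gel against the soft gel in the libraries labelled WT and KO. Filled points were called; dotted lines mark a log2 fold change of 1 in size. The KO stiff values lie near 0 for all genes, whereas the other 3 comparisons lie below 0 for all genes but Il1rn, whose values run from -0.71 to 0.08.

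In the libraries labelled KO, IL-4 gave called falls of 3 of 9 genes, where 3.65% of all genes were called: Cxcl10 by 2.51 ± 0.60, Cxcl2 by 1.80 ± 0.14 and Il1b by 1.58 ± 0.35 (adjusted p = 0.0273, 9.66e-05 and 0.0196). In 7 of 9 genes both IL-4 libraries lay below both soft libraries, where 60.4% of all genes did not overlap. Il18 and Cxcl16 again passed the adjusted p below the fold threshold (-0.87 ± 0.22 and -0.74 ± 0.10). Il10, called in WT, stood at -0.49 ± 0.47 here, and Saa3 at -0.93 ± 0.56. Leaving out KO soft 2, KO soft+IL-4 1 or KO soft+IL-4 2 left only Cxcl2 called, and leaving out KO soft 1 left Cxcl2 and Il1b. Cxcl10 was not called with a pseudocount of 0.1 (adjusted p = 0.208). Over that setting, no filter, median-of-ratios scaling and only the compared libraries, its adjusted p in limma ran from 0.00102 to 0.208.

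The stiff gel in KO cells gave 0 called genes of 9 by limma, where 0.0447% of all genes were called, and 1 of the 9 (Cxcl2) had an unadjusted p under 0.05, as did 295 of all genes. The log2 fold changes were -0.05 for Il1b (95% interval -0.83 to 0.73), -0.12 for Cxcl10 (-1.46 to 1.22), -0.18 for Saa3 (-1.44 to 1.07), -0.39 for Tnf (-1.74 to 0.96) and -0.42 for Cxcl2 (-0.74 to -0.09). Of these intervals only that of Cxcl2 leaves out 0, and those of Tnf, Saa3 and Cxcl10 still span falls of more than 1. In 4 of 9 genes (Tnf, Cxcl2 and Cxcl16 lower, Il10 higher) the groups did not overlap, where 32.3% of all genes did not. Compared with KO soft+IL-4, which was compared with the same KO soft libraries above, KO stiff held more Il1b (1.53 ± 0.35) and Cxcl2 (1.38 ± 0.14; adjusted p = 0.0423 and 0.00126). These were 2 of 9 genes called, where 1.61% of all genes were. Leaving out KO stiff 1, KO stiff 2, KO soft+IL-4 1 or KO soft+IL-4 2 left Cxcl2 alone, and none was called without the 3 libraries whose Camkk2 goes against the label.

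The genotypes were then compared within each condition. In the soft gel 0 of 9 genes and 0% of all genes were called by limma, and none of the 9 had an unadjusted p under 0.05, against 130 of all genes. The differences ran from -0.28 (Il1b, 95% interval -1.06 to 0.50) to 0.21 (Tnf, -1.14 to 1.56). By measured Camkk2 these groups were alike, with 44.2 and 11.7 TPM in the WT soft pair and 46.6 and 11.5 in the KO soft pair. The comparison therefore cannot show whether the deletion changes these genes in the soft gel. With IL-4 likewise 0 of 9 genes and 0% of all genes were called, with none of the 9 and 233 of all genes at an unadjusted p under 0.05. The widest differences there were 1.03 ± 0.47 for Il10, 0.95 ± 0.56 for Saa3 and -0.94 ± 0.60 for Cxcl10, each without overlap of the 2 groups.

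In the stiff gel, the libraries labelled KO held more Cxcl10 (3.12 ± 0.60), Il1b (2.28 ± 0.35) and Cxcl2 (1.61 ± 0.14) than those labelled WT, with adjusted p = 0.0186, 0.00663 and 0.00066. These were 3 of 9 genes called, where 1.98% of all genes were, and 8 of 9 genes were higher without overlap, where 39.1% of all genes did not overlap. Tnf, Saa3 and Il10 had differences of 2.32 ± 0.60, 2.26 ± 0.56 and 1.61 ± 0.47 and missed the adjusted p (0.0621, 0.0519 and 0.0963). Il18 stood at 0.84 ± 0.22 (adjusted p = 0.0604) and Cxcl16 at 0.61 ± 0.10 (adjusted p = 0.0101, under the fold threshold). Without WT stiff 1, the called genes were Tnf, Il1b, Cxcl2 and Cxcl10, at 1.05, 1.79, 1.59 and 1.97. Without WT stiff 2 there were 8 called genes, without KO stiff 1 there were 2 (Il1b and Cxcl2), and without KO stiff 2 or without the 3 libraries whose Camkk2 goes against the label only Cxcl2 was called. None was called when only the 4 stiff libraries gave the spread. Measured Camkk2 stood at 37.7 and 10.0 TPM in the KO stiff pair and at 23.3 and 23.7 TPM in the WT stiff pair. This comparison too therefore cannot show whether the deletion changes these genes.

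Whether the response to the stiff gel differed between the genotypes was tested as an interaction (the KO change minus the WT change). It was 2.56 ± 0.49 for Il1b (adjusted p = 0.0497) and 1.64 ± 0.20 for Cxcl2 (adjusted p = 0.0103), the 2 genes called of 9, where 0.67% of all genes were called. The median over the 9 genes was 1.86, against -0.02 over all genes, and all 9 values were above 0. Measured Camkk2 did not separate the labelled genotypes in the soft or the stiff gel, so this term cannot show an effect of the deletion. Cxcl10, Saa3 and Tnf had larger or similar values with more spread, 3.24 ± 0.84, 2.22 ± 0.79 and 2.12 ± 0.85 (adjusted p = 0.143, 0.309 and 0.398). No gene was called without WT soft 1, WT soft 2, KO soft 1 or KO stiff 2, or without the 3 libraries whose Camkk2 goes against the label, and only Cxcl2 without KO soft 2 or KO stiff 1. Without WT stiff 1, Il1b, Cxcl2 and Cxcl10 were called (2.07, 1.62 and 2.09), and without WT stiff 2 there were 8. The interaction with IL-4 gave 0 of 9 genes and 0% of all genes by limma, with none of the 9 and 165 of all genes at an unadjusted p under 0.05. Its values were 0.11 for Il1b (95% interval -0.99 to 1.21), 0.18 for Cxcl2 (-0.28 to 0.64) and -0.82 for Cxcl10 (-2.71 to 1.08). The largest was 1.29 for Il10 (-0.22 to 2.79), followed by 0.91 for Saa3 (-0.87 to 2.68).

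**Figure D4:**
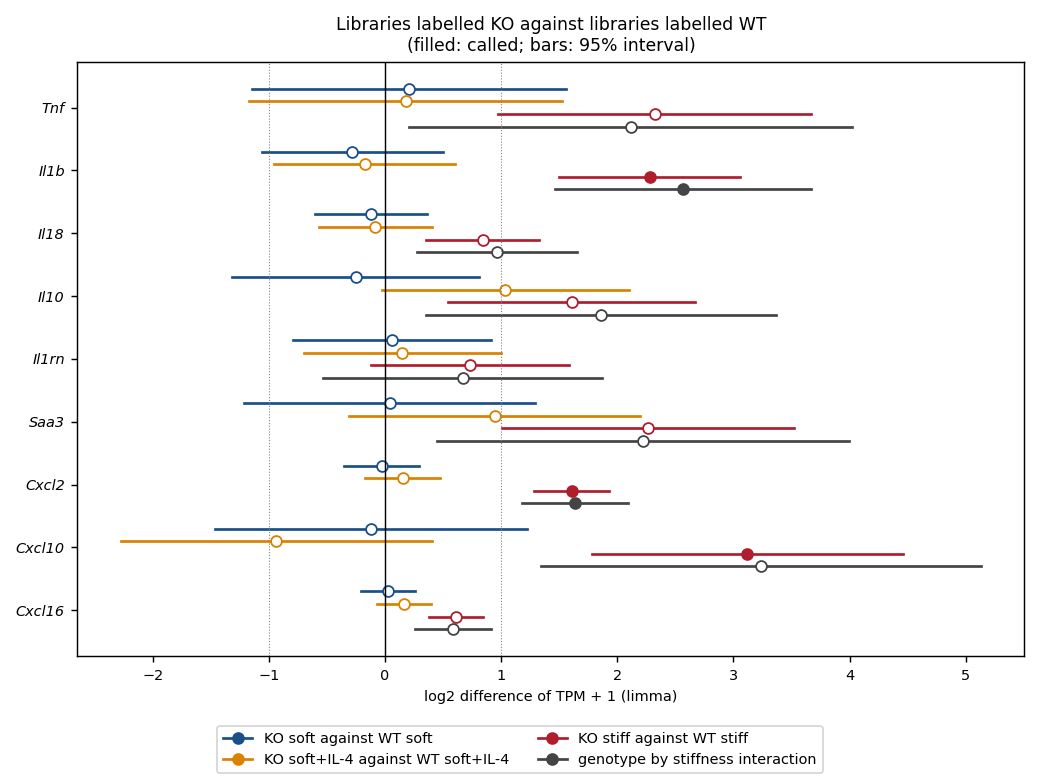
Difference of log2(TPM + 1) between the libraries labelled KO and WT (horizontal axis) with its 95% interval, in the soft gel, with IL-4 and in the stiff gel, and the genotype by stiffness interaction. Filled points were called. The soft differences lie near 0, and the stiff differences and the interaction lie above 0 for all 9 genes.

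Over the mean of both genotypes, IL-4 lowered 5 of 9 genes, where 4.35% of all genes were called: Cxcl10 by 2.10 ± 0.42, Cxcl2 by 1.89 ± 0.10, Il1b by 1.63 ± 0.25, Saa3 by 1.38 ± 0.39 and Il10 by 1.13 ± 0.33 (4 libraries against 4; adjusted p = 0.00637, 4.16e-06, 0.00139, 0.0327 and 0.0372). Cxcl10, Cxcl2 and Il1b were called in all 8 fits that left out 1 library, and Saa3 and Il10 in 2 of the 8 each. With a pseudocount of 0.1, Cxcl10 and Il10 were not called (adjusted p = 0.0936 and 0.0937). Without WT soft 2, WT soft+IL-4 1, KO soft 2 or KO soft+IL-4 2 those 3 genes alone were called. The stiff gel lowered 3 of 9 genes over the mean of both genotypes, where 1.35% of all genes were called: Cxcl10 by 1.74 ± 0.42, Il1b by 1.33 ± 0.25 and Cxcl2 by 1.24 ± 0.10 (adjusted p = 0.0406, 0.0128 and 0.000194). The stiff and soft libraries overlapped for Il1b and Cxcl10, and the IL-4 and soft libraries for Il10. This mean pools 2 changes that differ for Il1b and Cxcl2 by the interaction above. Only Cxcl2 was called without WT soft 2, KO soft 2 or KO stiff 1, and 5 genes without WT stiff 2.

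The genes that these mediators act on or are made through were read from lists by role. With only the libraries of the groups compared, every call of these lists between WT stiff and WT soft or KO stiff was lost. Of 10 tested cytokine receptors and binding proteins, 3 were called with IL-4 and with the stiff gel in WT, where 3.76% and 3.97% of all genes were called. Il10ra (an IL-10 receptor chain) fell, with log2 fold changes of -1.13 with IL-4 and -1.04 with the stiff gel, Cxcr3 (the Cxcl10 receptor) fell, with -1.71 and -2.11, and Il6st (the IL-6 receptor subunit gp130) rose, with 1.33 and 1.02. The KO IL-4 libraries gave the same 3 calls and a rise of Il18bp, which binds IL-18 (1.04, kept in 2 of 4 fits without 1 library). The medians of the list were -0.23 with IL-4 and -0.38 with the stiff gel in WT. Cxcr3 measured 5.11 and 4.51 TPM in the WT soft pair, 0.22 and 0.50 in the WT stiff pair and 6.33 and 3.52 in the KO stiff pair, and was the list's 1 call between KO stiff and WT stiff (2.09 ± 0.28, adjusted p = 0.00302). In KO stiff against KO soft no gene of this or the other pathway lists was called. The stiff calls of Il10ra and Il6st, close to the fold threshold, were kept in 2 of 4 fits without 1 library.

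Of 16 NF-kappaB subunits and feedback inhibitors, Nfkbiz (a nuclear IkappaB protein that aids transcription of a subset of targets) fell and Ier3 (an immediate early gene) rose, and the other 14 were not called. With IL-4 the values were -1.82 and 2.18 in WT and -2.07 and 1.99 in KO, and with the stiff gel in WT -2.13 and 2.75. Over all genes, 3.76%, 3.65% and 3.97% were called in these 3 comparisons, and 1.98% between KO stiff and WT stiff. Nfkbiz measured 15.0 and 18.8 TPM in the WT soft pair, 2.54 and 3.63 in the WT stiff pair and 11.4 and 15.4 in the KO stiff pair. KO stiff held more Nfkbiz (1.82 ± 0.23, adjusted p = 0.00217) and less Ier3 (-1.88 ± 0.28, adjusted p = 0.00645) than WT stiff, and Nfkbiz was called in the interaction (1.82 ± 0.32, adjusted p = 0.0314). The interaction call of Nfkbiz was kept in 2 of the 8 fits without 1 library. The median of the list was -0.31 with IL-4 and -0.42 with the stiff gel in WT.

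Irf7, a factor of the interferon response, fell with IL-4 in WT (-2.08 ± 0.51, adjusted p = 0.0302) and with the stiff gel in WT (-2.90 ± 0.51, adjusted p = 0.00707). Irf7 measured 171 and 202 TPM in the WT soft pair, 10.9 and 51.6 in the WT stiff pair and 144 and 163 in the KO stiff pair. It was higher in KO stiff than in WT stiff (2.62 ± 0.51, adjusted p = 0.0199), and was not called with IL-4 in KO. Each of the 4 fits that left out 1 library lost Irf7 with IL-4 in WT, and it was kept in 3 of 4 with the stiff gel and in 2 of 4 between the stiff groups.

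Of 11 inflammasome and shedding genes, Nlrp3, the sensor of the inflammasome that matures IL-1beta and IL-18, was the 1 called. It fell with IL-4 in WT (-2.03 ± 0.31, adjusted p = 0.00365) and KO (-1.87 ± 0.31, adjusted p = 0.00524) and with the stiff gel in WT (-1.45 ± 0.31, adjusted p = 0.0178). Nlrp3 measured 20.1 and 27.1 TPM in the WT soft pair and 12.2 and 5.05 in the WT stiff pair, and its stiff call was kept in 1 of 4 fits without 1 library. Casp1 was not called, with 140.1 and 127 TPM in the WT soft pair and 81.6 and 131 in the WT stiff pair. The share of all genes called was 3.76% with IL-4 in WT, 3.65% with IL-4 in KO and 3.97% with the stiff gel in WT.

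Of the other CXC ligands 3 of 12 listed were tested, and Cxcl1, a neutrophil attractant like Cxcl2, fell with IL-4 in WT (-1.99 ± 0.31) and KO (-2.01 ± 0.31; adjusted p = 0.00412 and 0.00377). Cxcl1 was low, with 3.39 and 3.5 TPM in the WT soft pair and 0 and 0.25 in the WT IL-4 pair. It is a close relative of Cxcl2, and how reads that both could share were assigned is not known here. Among all genes, IL-4 gave calls for 3.76% in WT, 3.65% in KO and 4.35% over both genotypes. The stiff gel in WT gave 3.97%, and KO stiff against WT stiff 1.98%. Of 8 other inflammatory cytokines tested, Il27 alone fell in KO with IL-4 (-1.99 ± 0.53, adjusted p = 0.0433, lost in each of the 4 fits without 1 library), and Il27, Tnfsf14 and Tnfsf9 over the mean of both genotypes (-1.48, -1.23 and -1.06, kept in 4, 3 and 4 of 8 fits without 1 library, and Il27 lost with a pseudocount of 0.1, adjusted p = 0.0622). The list also held Mif, a gene outside the naming rule that was chosen after its values were seen: it stood at 1661 TPM in WT stiff 1 and at 263 to 466 TPM in the other 11 libraries. Of the acute phase genes, Hp (haptoglobin) was the 1 of 2 tested that was called, in the same comparisons as Nfkbiz. It fell with IL-4 (-2.54 ± 0.24 in WT and -2.54 ± 0.24 in KO) and with the stiff gel in WT (-2.97 ± 0.24), and was higher in KO stiff than in WT stiff (2.40 ± 0.24).

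**Figure D5:**
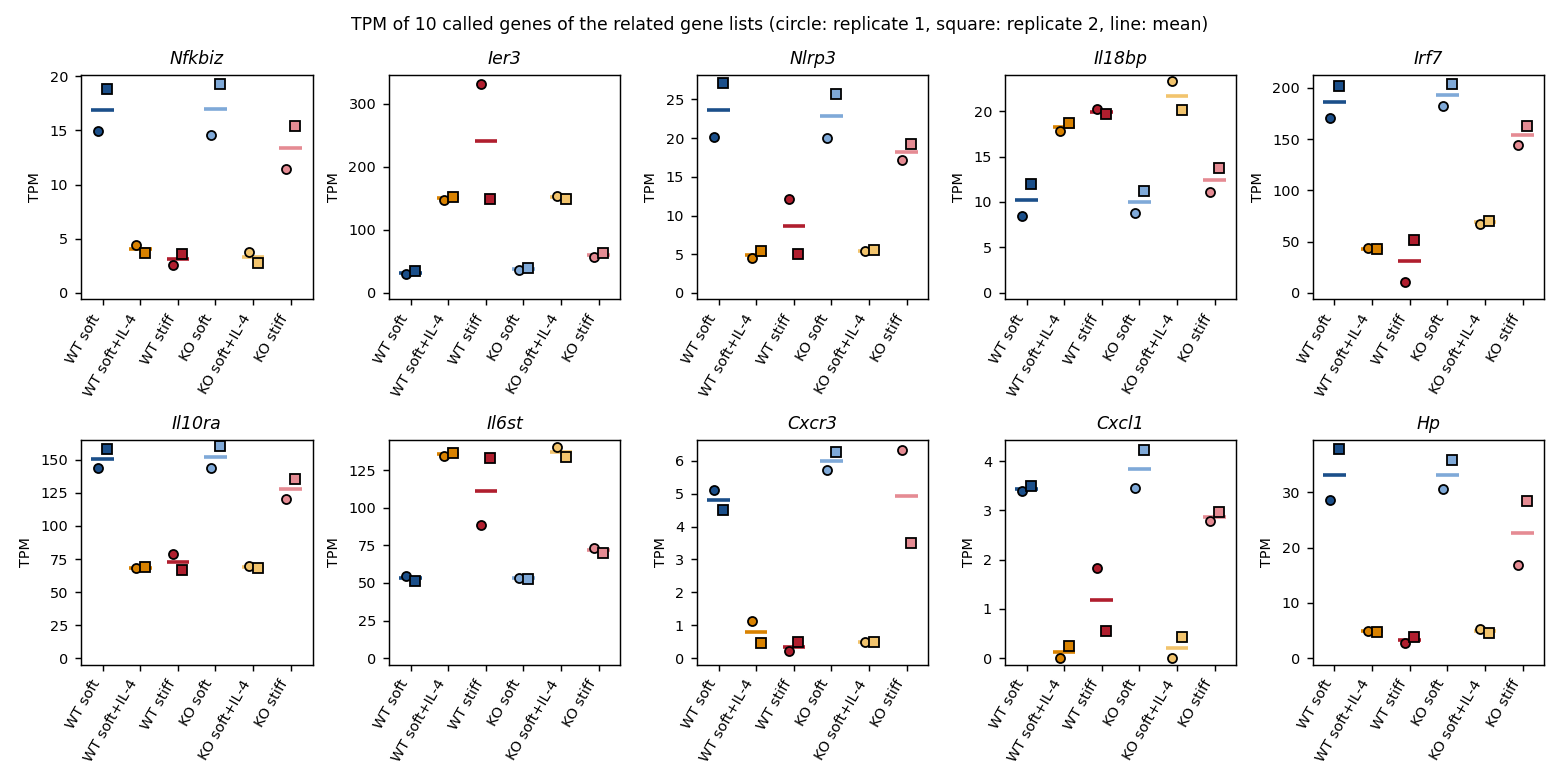
TPM (vertical axis, from 0, a separate scale per gene) of 10 called genes of the related lists in the 2 libraries of each of the 6 groups, with the mean as a line. Nfkbiz, Irf7, Cxcr3 and Hp are low in the IL-4 and WT stiff libraries and high in the others, and Ier3 and Il6st are higher there than in the others.

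Marker genes of the macrophage itself moved in the same comparisons. Of all genes, 3.76% were called with IL-4 in WT, 3.97% with the stiff gel in WT and 1.98% between KO stiff and WT stiff. Of 8 macrophage markers 4 fell with IL-4 in WT (Fcgr1, Lyz2, Mertk and Adgre1, of which Mertk was lost in each of the 4 fits without 1 library) and 2 with the stiff gel in WT (Fcgr1 by 2.53 ± 0.15 and Lyz2 by 1.25 ± 0.14), and Fcgr1 and Lyz2 were higher in KO stiff than in WT stiff (2.25 ± 0.15 and 1.07 ± 0.14). The summed level of the 8 markers was 45538 to 57335 TPM in the WT soft, KO soft and KO stiff libraries and 23575 to 25599 TPM in the other 6. Lyz2 alone made up most of it, with 40543 to 51543 TPM and 19076 to 21251 TPM in these 2 sets. No marker was at 0 in any library. Cd68, Csf1r and Itgam were not called in these comparisons. Ccr7, of 6 dendritic cell markers, rose with IL-4 (adjusted p = 0.0238, lost in each of the 4 fits without 1 library) and with the stiff gel (by 1.99 ± 0.35, adjusted p = 0.0067) in WT, while that list summed to 4.48 to 20.8 TPM, with 20.8 TPM in WT stiff 1. Ccr7 itself made up 19.1 TPM of the sum in WT stiff 1, and every other marker of the list stood at 0.74 TPM or less there. None of the 3 neutrophil markers tested was called. The part of these shifts in the cytokine and chemokine values was not tested.

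For each of the 6 tested genes that spanned at least 2 log2 units across the libraries, the genes with the most similar profile were found by the root mean square difference of centred log2(TPM + 1) over the 12 libraries, among 791 genes that spanned as much. Cxcl2 lay nearest to C5ar1 (the receptor of the anaphylatoxin C5a, 0.13), Hpgds (0.15) and Siglec1 (0.15). Tnf lay nearest to the interferon-stimulated genes Oasl2 (0.15), Rtp4 (0.15) and Mx1 (0.17), and Saa3 to Oasl1 (0.23), Clec4n (0.27) and Tmem176b (0.31). In WT stiff 1 and 2, Tnf measured 1.01 and 10.7 TPM, Oasl2 6.00 and 41.3, Rtp4 8.50 and 67.7, and Mx1 0.76 and 7.28. The low values of WT stiff 1 thus weigh on the Tnf match. Saa3, Il1b, Il10 and Cxcl10 were also lower in WT stiff 1 than in WT stiff 2, and so were the genes nearest to them. In WT stiff 1 and 2, Saa3 measured 34.4 and 135 TPM and Oasl1 0.78 and 3.97, and Cxcl10 measured 0 and 3.90 and Pcp4l1 1.44 and 11.1. The search was not repeated without WT stiff 1. Il1b lay nearest to Limd2 (0.22), Marcksl1 (0.24) and Slc40a1 (0.28), Il10 to Tmem176b (0.40), Cfb (0.42) and Slfn1 (0.42), and Cxcl10 to Pcp4l1 (0.38), Slc40a1 (0.45) and Fpr2 (0.47). C5ar1 measured 273 and 309.6 TPM in the WT soft pair, 80.6 and 87.3 in the WT stiff pair and 217 and 249 in the KO stiff pair. The points share their libraries, and no test was made.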

How the data were processed

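RNA-seq of 12 BMDM libraries (6 groups of 2) was read from 1 table of TPM that the authors deposited. Per the labels, reads were trimmed with Trim Galore 0.6.7, quantified with Salmon 1.4.0 and assigned to mm10, whereas the methods of the study describe STAR, featureCounts and DESeq, so how these values were made is not settled. No read counts were used, the depth is unknown, and no counting error can be given. Groups came from the sample labels; no column was unmapped.

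After a filter that kept genes reaching 1 TPM in 2 or more libraries (11194), limma 3.58.1 (R 4.3.3) was run on log2(TPM + 1) with 1 mean per group over all 12 libraries, no covariate and a variance trend. The Benjamini-Hochberg adjustment was made within each of 13 comparisons, and calls needed an adjusted p under 0.05 with a log2 fold change of 1 or more in size. Fold changes on this scale understate those of low genes. With 2 libraries against 2 an exact permutation test cannot go below p = 0.333, so none was used. The members and lists were chosen with earlier results of these data known. The text names all 10 members, in each list at most 4 called genes with the largest change per comparison, and the 3 genes nearest in profile. The code was tested on simulated data. Alternatives were a pseudocount of 0.1, no filter, median-of-ratios scaling, the replicate number as a block, only the compared libraries, calls at an adjusted p under 0.1 or at a log2 fold change of 2 or more in size, each library left out, and 3 libraries left out whose Camkk2 goes against the label. A left-out library leaves 1 in its group, which is then assumed to vary like the others. Coordinates are from GENCODE vM21 (GRCm38) and sequences from RefSeq (GRCm38.p6). Some results on single genes are not reported here.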

Additional observations from a re-analysis of the deposited data

Results flagged for a closer look

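The change from the soft to the stiff gel differed between the libraries labelled KO and WT by the interaction term of limma for Il1b (2.56 on the log2 scale) and Cxcl2 (1.64), and among the related lists for Nfkbiz (1.82), Hp (2.39) and the macrophage marker Fcgr1 (2.12). In each of the 5 genes both WT stiff libraries lay below both KO stiff libraries. The groups labelled WT soft, KO soft and KO stiff each hold 1 library whose Camkk2 goes against the label. Without the 3 libraries whose Camkk2 goes against the label none of the 5 was called, with values of 2.30 for Il1b (adjusted p = 0.900), 1.54 for Cxcl2 (0.536), 1.67 for Nfkbiz (0.838), 2.45 for Hp (0.270) and 2.23 for Fcgr1 (0.180). Fcgr1 was called in all 8 fits that left out 1 library.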

How the results depend on the processing

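No called value changed its direction under any alternative. The number of the 9 tested cytokine and chemokine genes called moved by over 1.5 times as follows, and by 1.5 times or less in other cases. With a pseudocount of 0.1, and likewise with no filter, there were 1 between KO stiff and KO soft+IL-4, 3 for IL-4 over both genotypes and 1 for the genotype by stiffness interaction, which was 1 with median-of-ratios scaling too. At an adjusted p under 0.1 there were 6 between KO stiff and WT stiff and 5 for the stiff gel over both genotypes. At a log2 fold change of 2 or more in size there were 0 for IL-4 in WT, 1 for IL-4 in KO, 0 between KO stiff and KO soft+IL-4, 1 for IL-4 and 0 for the stiff gel over both genotypes, and 1 for the interaction. With only the compared libraries there were 6 for IL-4 in WT, 0 for the stiff gel in WT, 0 between KO stiff and WT stiff, 1 for the stiff gel over both genotypes and 0 for the interaction, and over all genes the stiff calls in WT fell from 444 to 0. Without the 3 libraries whose Camkk2 goes against the label there was 1 each for IL-4 in WT, the stiff gel in WT, IL-4 in KO and KO stiff against WT stiff, 0 between KO stiff and KO soft+IL-4, 2 for IL-4 and 1 for the stiff gel over both genotypes, and 0 for the interaction. With 1 library left out the counts ran from 1 to 2 for IL-4 in WT and in KO, 2 to 8 for the stiff gel in WT, 0 to 5 between WT stiff and WT soft+IL-4, 1 to 1 between KO stiff and KO soft+IL-4, 1 to 8 between KO stiff and WT stiff, 3 to 5 for IL-4 and 1 to 5 for the stiff gel over both genotypes, and 0 to 8 for the interaction. The highest stiff counts came without WT stiff 2. The stiff gel in KO, KO against WT in the soft gel and with IL-4, and the genotype by IL-4 interaction gave 0 under every alternative. With the replicate block the counts were 4 for IL-4 in WT, 4 between KO stiff and WT stiff and 4 for the stiff gel over both genotypes, with Saa3 added, and no other count changed. The differences between libraries 1 and 2 correlated at -0.0526 to 0.314 over 15 pairs of groups, 3 of them over 0.1 (those among WT soft, KO soft and KO stiff). The numbers were not taken as pairs in the main fit, since the other pairs of groups did not share this. In WT soft, KO soft and KO stiff, library 1 held 44.2, 46.6 and 37.7 TPM of Camkk2 and library 2 held 11.7, 11.5 and 10.0. What these libraries share was not tested. With 2 libraries a group and unknown depth, values near 0 TPM (Il6, Il10, and Cxcl10 in WT stiff) have no stated counting error.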
